A study of Mus musculus with 18 samples.

Results

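The costimulatory and checkpoint ligands of dendritic cells (DCs) are surface proteins through which a DC adjusts the response of a T cell that recognizes its antigen. Transcripts of 10 such genes, namely Cd80, Cd86, Icosl, Cd274, Pdcd1lg2, Cd40, Cd83, Tnfsf4, Tnfsf9 and Cd70, were taken by symbol from the 29875 genes of the deposited count table. All 10 passed the filter on low counts, which 13844 genes passed. Bone marrow of wild-type C57Bl6/J mice aged 8 to 12 weeks was cultured with the supernatant of a GM-CSF hybridoma, and the resulting DCs were matured from culture day 8 with lipopolysaccharide (LPS) at 200 ng/ml for 24 hours. All 18 libraries share this treatment, so none shows unstimulated cells. The cells then entered migration chambers, either in gels of bovine collagen at 1.7, 2.6, 3.5 or 4.4 mg/ml or in the same chambers with no collagen (suspension), and RNA was isolated 5 hours after the CCL19 gradient was introduced. Each of the 4 densities and of the 2 suspension groups has 3 replicates. The suspension groups are titled plus CCL19 and without CCL19, but their library names state the opposite, so each group goes by its title and which of them met CCL19 is not settled.

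CD80 and CD86 of the B7 family bind CD28, which costimulates T cells, and CTLA-4, which restrains them. ICOSL binds ICOS, whereas PD-L1 (encoded by Cd274) and PD-L2 (Pdcd1lg2) bind the inhibitory receptor PD-1. CD40 is the receptor through which T helper cells license DCs, CD83 marks mature DCs and stabilizes MHC class II and CD86 at the surface, and OX40L (Tnfsf4), 4-1BBL (Tnfsf9) and CD70 are TNF family ligands that sustain activated T cells. LPS is known to induce many of these genes during DC maturation.

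The libraries held 13062944 to 28059839 counts, and 3 counts, the limit that a count of 0 allows, corresponded to 0.0941 to 0.256 CPM, a gene's count scaled to a common library total with TMM. The lowest count of any member was 34, for Cd70. The replicate number marks a date and a sequencing lane that recur in the library names. Markers of DCs summed to 33249 to 102163 CPM in suspension and 44633 to 112576 CPM in collagen, and each of the 10 reached 1 CPM, whereas 6 of 7 markers of T and NK cells stayed under 1 CPM in every library. Of 10 eosinophil markers, 9 passed the filter and all 9 were lower in collagen, and the sum of the 10 ranged from 121 to 1385 CPM (median 362) in suspension and from 14.8 to 171 CPM (median 44.4) in collagen. Of the 10 markers of macrophages and monocytes none was called in either direction, whereas 6 were higher in collagen when the replicate number was a block, and their sum ranged from 869 to 5636 CPM in suspension and from 946 to 7032 CPM in collagen. Mitochondrial genes took 0.583 to 1.68% of the counts in suspension and 0.832 to 2.90% in collagen. Replicate 2 at 4.4 mg/ml and replicate 3 at 2.6 mg/ml lay farthest from the mean of their replicate number, with a root mean square distance of 0.964 and 0.864 on the log2 scale against 0.383 to 0.745 in the other libraries. The methods give male mice, yet 6 of 6 libraries of replicate 1 and 6 of 6 of replicate 2 held Xist, and those of replicate 3 held Y-linked genes.

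Among all 6 groups, 0 of the 10 members differed at a false discovery rate (FDR) of 0.1 in edgeR's quasi-likelihood test, where 4.9% of all genes tested were called (679 genes, and 2302 at an unadjusted p under 0.05). With the replicate number as a block, Cd80, Cd40, Pdcd1lg2 and Tnfsf9 differed, and 24.3% of all genes were called. In the mean of the 4 collagen groups against the mean of the 2 suspension groups, Cd80, Pdcd1lg2 and Tnfsf9 were higher in collagen, 3 of 10 members where 7.78% of all genes were called higher. No member was lower, where 12.4% of all genes were. The members' median log2 difference was 0.34, against 0.0027 over all genes tested. With the block, Tnfsf4 was also higher and Icosl lower, so that 4 members were higher against 15.6% of all genes and 1 was lower against 19.3%. In bulk RNA, fewer cells of a type and less RNA per cell cannot be told apart. Eosinophil RNA and, with the block, macrophage RNA moved with the same comparison. Of 10 neutrophil markers 2 were lower, Ly6g and Retnlg, where 12.4% of all genes were. The sum of this list ranged from 779 to 10045 CPM in suspension and from 1186 to 5394 CPM in collagen. It differed by 0.76, -0.63 and -0.50 on the log2 scale within replicates 1, 2 and 3. Of 8 markers of mast cells and basophils Kit was lower (81.4 to 276 and 47.8 to 275 CPM). With the block 3 of 8 were lower, where 19.3% of all genes were. Of the 10 DC markers 1 was lower and 0 higher, or 1 and 1 with the block. The part of cells other than DCs in the members' differences was not tested. The plot of every library's level shows these members beside those that were not called.

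**Figure D1:**
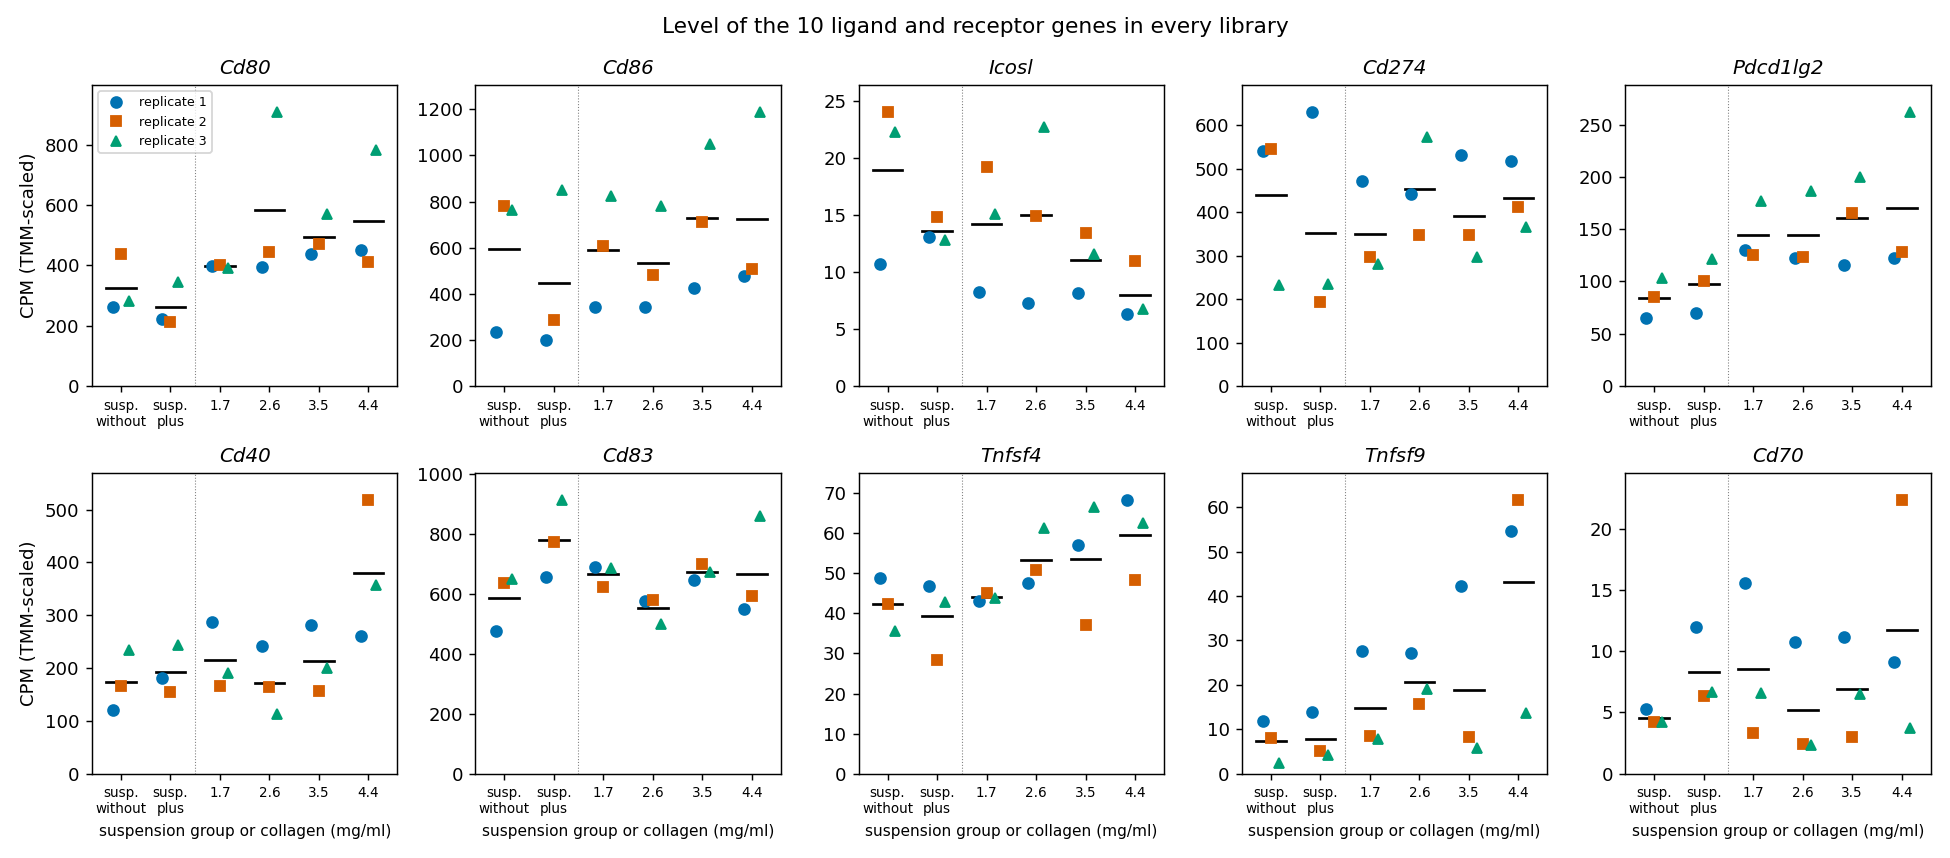
Level of each of the 10 genes in TMM-scaled CPM (linear axis from 0) in the 2 suspension groups and the 4 collagen densities. Points are libraries, coloured and shaped by replicate number, and black bars are group means of 3 libraries. Pdcd1lg2 lies above the highest suspension library in 11 of 12 collagen libraries, whereas Cd86 is lowest in replicate 1 in each of the 6 groups.

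Promoter sequences are shown for 3 members whose level in collagen is described next, Cd80 and Pdcd1lg2, which were higher, and Cd274, the neighbour of Pdcd1lg2, which was not called. RefSeq (GRCm38.p6) held windows for these and for Icosl, 4 of the 10 members. The 250 bases before the start are printed 5′ to 3′ on the plus strand, in lower case, with capitals for a match to 1 of 4 motifs searched on both strands.
Cd80, chr16:38458683-38458932: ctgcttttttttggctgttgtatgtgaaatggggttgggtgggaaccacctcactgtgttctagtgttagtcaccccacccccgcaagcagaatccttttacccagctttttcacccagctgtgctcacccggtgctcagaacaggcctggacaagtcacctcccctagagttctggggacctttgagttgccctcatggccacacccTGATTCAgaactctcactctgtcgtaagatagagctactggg
Pdcd1lg2, chr19:29410669-29410918: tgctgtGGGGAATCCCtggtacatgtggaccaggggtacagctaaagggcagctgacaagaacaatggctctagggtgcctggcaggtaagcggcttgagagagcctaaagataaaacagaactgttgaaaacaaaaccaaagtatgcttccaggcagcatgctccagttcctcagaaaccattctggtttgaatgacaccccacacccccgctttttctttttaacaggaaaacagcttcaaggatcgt
Cd274, chr19:29367188-29367437: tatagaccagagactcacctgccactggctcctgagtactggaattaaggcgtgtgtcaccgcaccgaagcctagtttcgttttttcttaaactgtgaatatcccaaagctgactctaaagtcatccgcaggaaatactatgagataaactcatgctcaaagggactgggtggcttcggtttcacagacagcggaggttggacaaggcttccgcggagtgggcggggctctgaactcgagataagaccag
The capitals in Cd80 are an AP-1 match (TGANTCA) 42 bases before the start, and those in Pdcd1lg2 are a match to the NF-kB consensus 244 bases before the start. Both matches fit their motif on either strand. Cd274 and Icosl held no match to these or to the motifs TTCNNNGAA (GAS) and ISRE. In all 32851 windows of 300 bases, 4.51% held the NF-kB consensus, 7.81% AP-1, 8.3% GAS and 3.44% ISRE. The RefSeq start of Cd80 lies downstream of the first base of the gene in GENCODE. A match describes letters in this window and is not a binding site.

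Cd80 (ENSMUSG00000075122, GRCm38 chr16:38455561-38496335, plus strand), the B7 ligand that matured DCs add to CD86, was among the members higher in collagen. It measured 224, 213 and 346 CPM in suspension titled plus CCL19 (replicates 1, 2 and 3) and 262, 437 and 280.3 CPM in suspension titled without CCL19. It measured 398, 402 and 392 CPM at 1.7 mg/ml, 393, 445 and 908 CPM at 2.6 mg/ml, 438, 469.7 and 571 CPM at 3.5 mg/ml, and 452, 412 and 781 CPM at 4.4 mg/ml. The ranges overlapped through 1 suspension library, replicate 2 titled without CCL19, and 7 of 12 collagen libraries lay above it. The mean rose from 294 ± 84.7 CPM (SD, n = 6) to 505 ± 168 CPM (n = 12), a log2 difference of 0.78 ± 0.22 (SE) or 1.71-fold (adjusted p = 0.0296). The difference within replicates 1, 2 and 3 was 0.79, 0.50 and 1.02. Leaving out replicate 1 or 2 ended the call (adjusted p = 0.109 and 0.147, log2 0.79 and 0.94). The 3 suspension libraries with the most eosinophil RNA were replicates 2 and 3 titled plus CCL19 and replicate 3 titled without CCL19. Without them the difference was 0.83 in the fit without the block (adjusted p = 0.159). Replicate 3 then had no suspension library, so the balance of replicates changed together with the eosinophil RNA.

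Cd86 (ENSMUSG00000022901, chr16:36603869-36666081, minus strand), which binds the same receptors as Cd80, followed the replicate number more than the gel. In suspension it measured 198, 288 and 850.3 CPM titled plus CCL19 and 232, 782 and 763 CPM titled without. At 4.4 mg/ml it measured 476, 509 and 1187 CPM. Its mean over the 6 groups was 335 ± 107 CPM in replicate 1, 563 ± 178 CPM in replicate 2 and 909 ± 170.1 CPM in replicate 3 (SD, n = 6 each). Collagen differed from suspension by 0.31 on the log2 scale (95% interval -0.45 to 1.08, adjusted p = 0.623), an interval that holds both no change and changes in either direction. With the replicate block the difference was 0.41 (95% interval 0.03 to 0.79, adjusted p = 0.101), just outside the threshold. All 3 replicates were higher in collagen, by 0.87, 0.26 and 0.23.

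The other B7 ligand of costimulation, Icosl (ENSMUSG00000000732, chr10:78069302-78083913, plus strand), had the lowest level per length of all members in suspension. It measured 13.1, 14.8 and 12.8 CPM in suspension titled plus CCL19 and 10.7, 24.0 and 22.3 CPM in suspension titled without CCL19. At 4.4 mg/ml it measured 6.27, 10.9 and 6.74 CPM. Replicates 1 and 3 at 4.4 mg/ml lay below all 6 suspension libraries, and replicate 2 lay above 1 of them. Over all densities 5 of 12 collagen libraries lay below the lowest suspension library, and the difference was negative in 3 of 3 replicates (-0.66, -0.39 and -0.40). Without the block the log2 difference of -0.46 ± 0.26 did not pass (adjusted p = 0.268). With the block it was -0.49 ± 0.18 and passed (adjusted p = 0.0578).

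Of the PD-1 ligands, Pdcd1lg2 was higher in collagen and Cd274 was not called. Pdcd1lg2 (ENSMUSG00000016498, chr19:29410919-29471161, plus strand) measured 69.8, 100.6 and 122 CPM in suspension titled plus CCL19 and 65.1, 85.2 and 103 CPM in suspension titled without CCL19. In collagen it measured 130.2, 126 and 177 CPM at 1.7 mg/ml, 123, 124 and 186 CPM at 2.6 mg/ml, 116, 165 and 200.1 CPM at 3.5 mg/ml, and 122, 128 and 262 CPM at 4.4 mg/ml. Only replicate 1 at 3.5 mg/ml lay below the highest suspension library, and in 3 of 3 replicates all 4 collagen libraries lay above both suspension libraries. Tnfsf9 shared that order, as did 2.43% of all genes tested. The mean of Pdcd1lg2 rose from 91.0 ± 21.7 CPM (SD, n = 6) to 155 ± 44.6 CPM (n = 12), a log2 difference of 0.77 ± 0.22 (adjusted p = 0.0277). Leaving out replicate 2 ended this call (log2 0.86, adjusted p = 0.197). Without the 3 suspension libraries with the most eosinophil RNA the log2 difference was 1.09 in the fit without the block. That omission left replicate 3 with no suspension library. Over the 6 groups Pdcd1lg2 averaged 104, 121 and 175 CPM in replicates 1, 2 and 3. Within these replicates its difference was 0.86, 0.54 and 0.86, each below 1.09. The parts of replicate number and eosinophil RNA in the value of 1.09 were not tested.

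Cd274 (ENSMUSG00000016496, chr19:29367455-29388095, plus strand), which encodes PD-L1, had a wider range in suspension than in collagen. It measured 630.2, 194 and 234 CPM in suspension titled plus CCL19 and 540.5, 546 and 232 CPM titled without. In collagen it ranged from 280.0 to 573 CPM, within the suspension range of 194 to 630.2 CPM. The log2 difference was 0.04 (95% interval -0.52 to 0.60, adjusted p = 0.94). Its sign differed between replicates, at -0.25, 0.10 and 0.64. Without the 3 suspension libraries with the most eosinophil RNA the log2 difference was -0.54 in the fit without the block (adjusted p = 0.249). That omission left replicate 3 with no suspension library. Over the 6 groups Cd274 averaged 523 ± 64.9 CPM in replicate 1 and 330 ± 129 CPM in replicate 3. The parts of replicate number and eosinophil RNA in this shift were not tested.

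Of the receptor and the maturation marker, Cd40 was higher in the densest gel and Cd83 was not called in any comparison. Cd40 (ENSMUSG00000017652, chr2:165055627-165072948, plus strand) measured 261, 518 and 358 CPM at 4.4 mg/ml, all above the highest of the 6 suspension libraries (243 CPM). The suspension libraries measured 181, 154 and 243 CPM titled plus CCL19 and 119.8, 167 and 234 CPM titled without. At 1.7 to 3.5 mg/ml Cd40 ranged from 113 to 286 CPM. At 4.4 mg/ml its log2 difference from suspension was 1.05 ± 0.31, or 2.07-fold (adjusted p = 0.0428). Without replicate 2 at 4.4 mg/ml, one of the libraries that stand apart, it was 0.76 ± 0.34 (adjusted p = 0.209). Over all densities the difference was 0.35 (95% interval -0.13 to 0.83, adjusted p = 0.338).

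Cd83 (ENSMUSG00000015396, chr13:43784775-43803132, plus strand) ranged from 475 to 914 CPM over all libraries. Its mean was 685 ± 148 CPM (SD, n = 6) in suspension and 639.9 ± 93.4 CPM (n = 12) in collagen. No collagen library lay outside the suspension range. The log2 difference was -0.09 (95% interval -0.41 to 0.23, adjusted p = 0.754), the narrowest interval of the 10 members.

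Of the TNF family ligands, Tnfsf9 had the largest difference of all members. Tnfsf9 (ENSMUSG00000035678, chr17:57105325-57107757, plus strand), whose product 4-1BBL costimulates activated T cells through 4-1BB, measured 13.9, 5.15 and 4.23 CPM in suspension titled plus CCL19 and 11.8, 7.93 and 2.38 CPM titled without. It measured 27.7, 8.55 and 7.83 CPM at 1.7 mg/ml, 27.2, 15.7 and 19.1 CPM at 2.6 mg/ml, 42.2, 8.36 and 5.81 CPM at 3.5 mg/ml, and 54.6, 61.6 and 13.6 CPM at 4.4 mg/ml. Pooled over replicates the ranges overlapped, and the suspension level itself was highest in replicate 1. Within 3 of 3 replicates every collagen library lay above both suspension libraries. The log2 difference was 1.56 ± 0.51, or 2.94-fold (adjusted p = 0.0537), and 1.49, 1.33 and 1.68 within replicates 1, 2 and 3. Leaving out replicate 2 or 3 ended the call (adjusted p = 0.278 and 0.109), as did leaving out replicate 2 or 3 of suspension titled plus CCL19 or replicate 3 of suspension titled without CCL19 (adjusted p = 0.131, 0.123 and 0.123). Without the last 3 libraries together, those with the most eosinophil RNA, the difference was 0.92 (adjusted p = 0.453), and 1.41 with the replicate block (adjusted p = 0.0432). That omission left replicate 3 with no suspension library. Over the 6 groups Tnfsf9 averaged 29.6 ± 16.5 CPM in replicate 1 and 8.83 ± 6.35 CPM in replicate 3. The parts of replicate number and eosinophil RNA in the value without the block were not tested.

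Tnfsf4 (ENSMUSG00000026700, chr1:161395409-161418410, plus strand), which encodes OX40L, had a mean of 40.8 ± 7.61 CPM (SD, n = 6) in suspension and 52.6 ± 10.2 CPM (n = 12) in collagen. The suspension libraries ranged from 28.4 to 48.9 CPM, and 6 of 12 collagen libraries lay above them. The log2 difference was 0.36 ± 0.17 (adjusted p = 0.17) and it passed with the block (0.36 ± 0.15, adjusted p = 0.0785). Cd70 (ENSMUSG00000019489, chr17:57145997-57149777, minus strand), the ligand of CD27, was low in every group. It ranged from 4.19 to 12.0 CPM in suspension and from 2.32 to 22.4 CPM in collagen, with 2 collagen libraries above and 5 below the suspension range. Its log2 difference was 0.32 (95% interval -0.61 to 1.25, adjusted p = 0.685). The plot of differences gives the interval of every member in both fits.

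**Figure D2:**
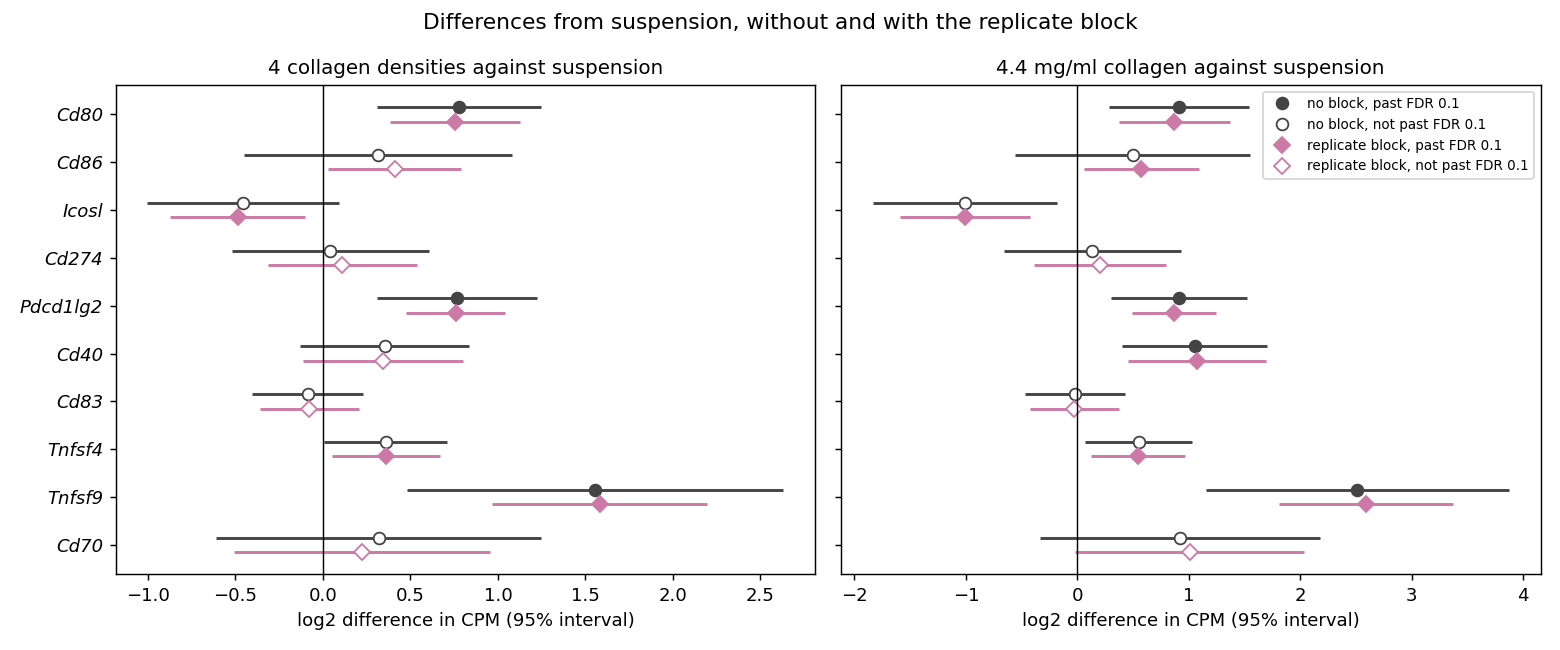
Log2 difference of each gene from the mean of the 2 suspension groups, for the mean of the 4 collagen densities (left) and for 4.4 mg/ml alone (right), on separate axes, with 95% intervals from edgeR. Circles are the fit without the replicate block and diamonds the fit with it, filled where the gene passed an FDR of 0.1. Tnfsf9 lies farthest from 0 in both panels, at 1.56 and 2.51, and the intervals of Cd83 and Cd274 span 0.

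Against suspension, the number of members that passed differed between the densities, a difference that was not itself tested. These comparisons share the 6 suspension libraries. At 1.7 mg/ml none passed, where 0.0361% of all genes did (5 genes, and 1113 at an unadjusted p under 0.05), and with the block Pdcd1lg2 passed (log2 0.68, adjusted p = 0.0714) where 2.91% of all genes did. At 2.6 mg/ml Cd80 passed (log2 1.00 ± 0.30, adjusted p = 0.0733), where 7.87% of all genes did, and this call was lost without replicate 3 at 2.6 mg/ml (log2 0.55, adjusted p = 0.451), the library with the highest Cd80 level. It was also lost without replicate 2 at 2.6 mg/ml, replicate 2 of suspension titled plus CCL19, or replicate 1 or 3 of suspension titled without CCL19. With the block Pdcd1lg2 and Tnfsf9 passed as well, at a share of 21.6% of all genes. At 3.5 mg/ml none passed where 4.9% of all genes did, and Cd80, Pdcd1lg2 and Tnfsf9 passed with the block where 18.4% did.

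At 4.4 mg/ml, Tnfsf9, Cd40, Pdcd1lg2 and Cd80 were higher than in suspension, 4 of 10 members where 6.55% of all genes were higher, and none was lower where 8.29% of all genes were. In the fit without the block, leaving out replicate 2 in all groups ended all 4 calls. This omission was not repeated with the block. The median log2 difference of the 10 members was 0.73, against 0.01 over all genes. Tnfsf9 was higher by 2.51 ± 0.64 on the log2 scale, or 5.70-fold (adjusted p = 0.022), with 2.08, 3.25 and 2.06 within replicates 1, 2 and 3. Pdcd1lg2 was higher by 0.91 ± 0.29 (adjusted p = 0.0577) and Cd80 by 0.91 ± 0.30 (adjusted p = 0.0644). Without replicate 3 at 4.4 mg/ml, the highest library of both genes at this density, these were 0.46 (adjusted p = 0.374) and 0.56 (adjusted p = 0.318). The call of Cd80 was also lost without replicate 1 at 4.4 mg/ml (log2 1.03, adjusted p = 0.107), without replicate 2 of suspension titled plus CCL19 and without replicate 3 of suspension titled without CCL19. Without replicate 2 at 4.4 mg/ml, Tnfsf9 was higher by 2.17 on the log2 scale (adjusted p = 0.0914). Without the 3 suspension libraries with the most eosinophil RNA it was higher by 1.87 (3.65-fold, adjusted p = 0.191), and the call of Cd80 was lost as well (adjusted p = 0.165). Both values come from the fit without the block, in which replicate 3 then had no suspension library. Markers of macrophages and monocytes summed to a median of 5055 CPM and at most 6929 CPM at 4.4 mg/ml, and their part in these differences was not tested.

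With the replicate block, 7 of 10 members passed at 4.4 mg/ml, 6 of them higher where 15.8% of all genes were and 1 lower where 16.2% were. Added to the 4 named above were Cd86 (log2 0.57 ± 0.25, adjusted p = 0.0978), Tnfsf4 (0.54 ± 0.20, adjusted p = 0.0587) and Icosl, which was lower (-1.01 ± 0.28, adjusted p = 0.0141). Without the block the values of these 3 were 0.49, 0.55 and -1.01 (adjusted p = 0.572, 0.144 and 0.115). In 3 of 3 replicates Icosl at 4.4 mg/ml was below the suspension mean, by -0.90, -0.78 and -1.31. The plot relative to each replicate's own suspension libraries shows 6 of the members by density.

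**Figure D3:**
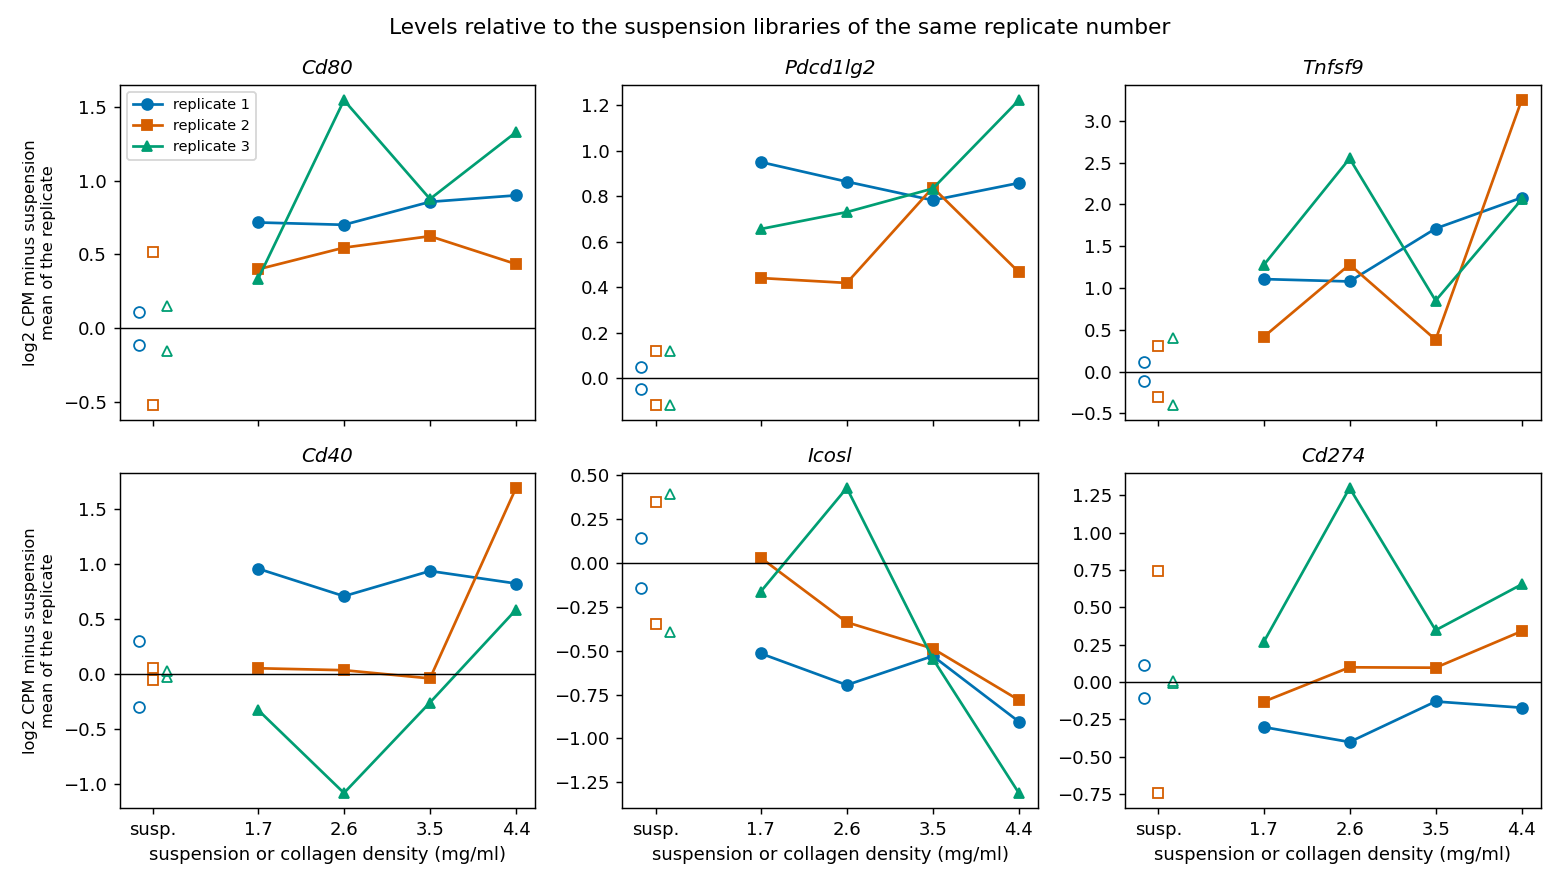
Log2 CPM minus the mean of the 2 suspension libraries of the same replicate number (vertical axes, scaled per gene) in suspension and at 4 collagen densities in mg/ml. Open symbols are the suspension libraries and filled symbols joined by lines the collagen libraries of replicates 1, 2 and 3. Every filled symbol of Pdcd1lg2 and Tnfsf9 is above the open symbols of its own replicate, and Cd40 at 4.4 mg/ml differs by 0.82, 1.69 and 0.58.

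Within collagen, no member followed the density at the threshold in edgeR, with or without the block, whereas DESeq2 with the block called Tnfsf9 (adjusted p = 0.0516). A linear trend over the 4 densities called 0.00722% of all genes (1 gene, and 997 at an unadjusted p under 0.05) and, with the block, 1.45%. Tnfsf9 had the steepest slope, 0.50 ± 0.28 on the log2 scale per mg/ml (95% interval -0.08 to 1.09, adjusted p = 0.779). Cd40 had a slope of 0.31 ± 0.13 (adjusted p = 0.601), and Icosl had a slope of -0.33 ± 0.15 (adjusted p = 0.686). The densest gel against the loosest also called none of the members in these edgeR fits, where 0.00722% of all genes passed without the block (1061 at an unadjusted p under 0.05) and 1.73% with it. Tnfsf9 was higher at 4.4 than at 1.7 mg/ml in 3 of 3 replicates, by 0.97, 2.83 and 0.79, and came closest with the block (log2 1.66 ± 0.46, adjusted p = 0.102). It passed when GC and length offsets were added to the block, and in DESeq2 with the block. Icosl was lower at 4.4 than at 1.7 mg/ml in 3 of 3 replicates, by -0.39, -0.81 and -1.15.

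The suspension groups gave no call for any member, and 0% of all genes tested passed in edgeR without the block or with it (855 and 1960 genes at an unadjusted p under 0.05). DESeq2 also called 0 genes without the block, but 194 with it, none of them a member. The members' log2 differences, titled plus minus titled without CCL19, ran from -0.48 for Icosl to 0.87 for Cd70. The intervals remained wide, for example -0.64 to 2.37 for Cd70 and -0.11 to 0.93 for Cd83.

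Any members can be compared with each other within a library, which removes the scaling of that library. The 3 pairs taken here each share a chromosome. Pdcd1lg2 lies 22823 bases from Cd274 on chromosome 19, Tnfsf9 lies 38239 bases from Cd70 on chromosome 17, and Cd80 and Cd86 lie 1789479 bases apart on chromosome 16. Tnfsf9 exceeded Cd70 by 0.09 ± 0.81 (SD, n = 6) on the log2 CPM scale in suspension and by 1.53 ± 0.94 (n = 12) in collagen. The ratio of Tnfsf9 to Cd70 was 2.73-fold higher in collagen (two-sided exact permutation test over all libraries, p = 0.0063, adjusted over 3 pairs p = 0.0189), and it was higher in 3 of 3 replicates. Permuting only within replicates, in all 3375 arrangements, gave an adjusted p = 0.0169. The permutation over all libraries ignores the replicate number. For all 3 pairs these tests use the same values as the members' differences described above, so they are not separate evidence for them.

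Pdcd1lg2 relative to Cd274 was -1.99 ± 1.08 (SD, n = 6) in suspension and -1.40 ± 0.59 (n = 12) in collagen, a 1.51-fold higher ratio. This difference did not pass over all libraries (exact permutation test, adjusted p = 0.224), yet it was positive in 3 of 3 replicates (1.12, 0.44 and 0.22) and had an adjusted p = 0.04 within replicates. Cd80 relative to Cd86 was higher by 0.32 on the log2 scale, in 2 of 3 replicates (exact permutation test, p = 0.254, and 0.0856 within replicates). The plot of within-library differences shows all 3 pairs.

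**Figure D4:**
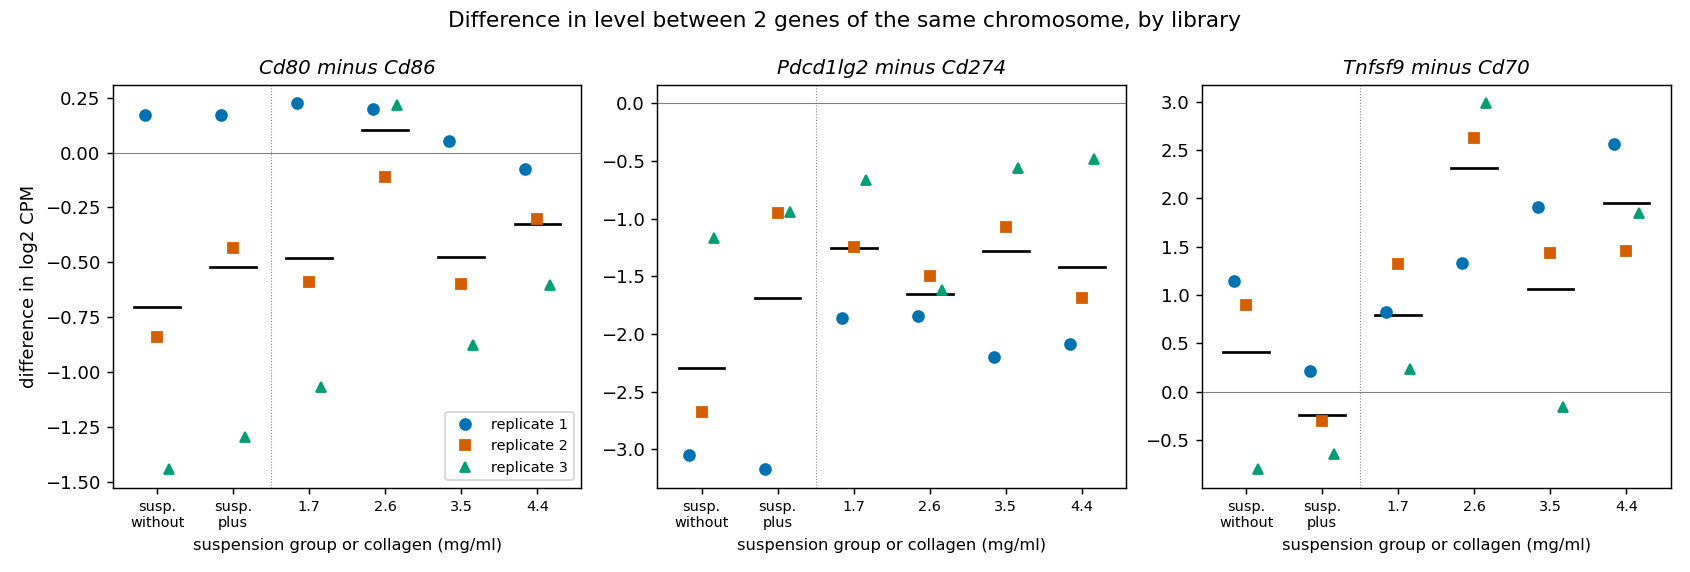
Difference in log2 CPM between 2 genes of the same chromosome in each library (points, coloured and shaped by replicate number) and group mean (black bars, n = 3), in the 2 suspension groups and at 4 collagen densities in mg/ml. Tnfsf9 minus Cd70 averages 0.09 in suspension and 1.53 in collagen, and Pdcd1lg2 minus Cd274 averages -1.99 and -1.40.

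The share of the variation that lay between the 6 groups differed widely among the members. Of the sum of squares of log2 CPM over the 18 libraries, the groups held 58.7% for Cd80, 54.3% for Pdcd1lg2 and 51.7% for Cd40, against a median of 33.6% over all genes tested. They held 16.8% for Cd86 and 14.6% for Cd274. For Cd86 the replicate number held 69.8%, and for Cd274 41.3%, against a median of 25.5%. Cd40 barely followed the replicate number (1.55%), and 46.8% of its variation lay in neither. Pdcd1lg2 had the smallest share in neither (7.81%).

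**Figure D5:**
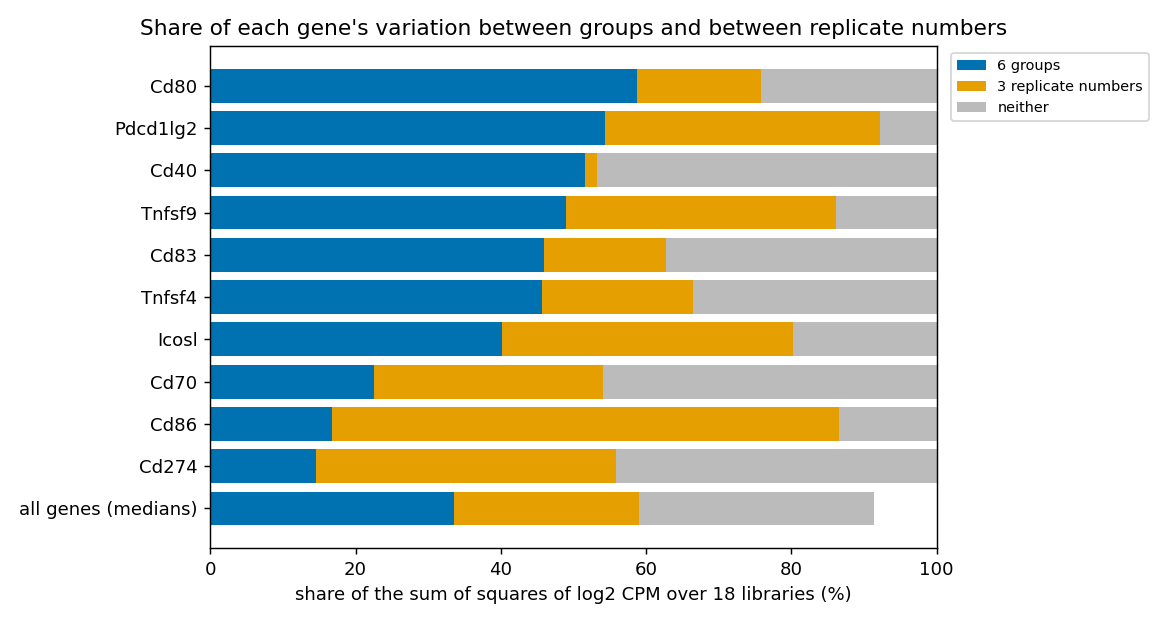
Share (%, axis from 0 to 100) of each gene's sum of squares of log2 CPM over 18 libraries that lies between the 6 groups, between the 3 replicate numbers, or in neither. Genes are ordered by the share of the groups, from Cd80 (58.7%) to Cd274 (14.6%), and the last bar gives the medians over all genes tested, taken separately for each share.

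Per kilobase of exon, Cd83 had the highest level of the members in suspension, 266 ± 57.4 CPM per kilobase (SD, n = 6). It was followed by Cd86 (142), Cd274 (109), Cd80 (79.3), Cd40 (53.8), Pdcd1lg2 (46.4), Tnfsf4 (22.2), Cd70 (7.66), Tnfsf9 (5.87) and Icosl (3.52), all in CPM per kilobase. The ranges of mean ± SD overlapped between neighbours in this order except for Pdcd1lg2 and Tnfsf4, and for Tnfsf4 and Cd70. At 4.4 mg/ml Cd80 (148) stood above Cd274 (119), and Tnfsf9 (33.5) above Tnfsf4 (32.4), yet these ranges overlapped in both pairs. Icosl again had the lowest level, 1.73 ± 0.55 CPM per kilobase (n = 3).

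Across the 18 libraries, after the mean of each replicate number was subtracted, the members did not form a single pattern. The highest correlations were those of Cd80 with Tnfsf4 (Pearson r = 0.78), Cd80 with Pdcd1lg2 (0.76) and Cd40 with Cd70 (0.74). The lowest was that of Icosl with Pdcd1lg2 (-0.69). These values describe libraries that share groups and scaling, with n = 18, and carry no test. The 2 libraries that stand apart enter them. Replicate 2 at 4.4 mg/ml had the highest Cd40 (518 CPM) and Cd70 (22.4 CPM) of all libraries, and replicate 3 at 2.6 mg/ml the highest Cd80 (908 CPM). Correlations without these libraries were not computed. Genes most like Cd80 included Scyl2 (0.97) and Slc25a36 (0.96). Those most like Tnfsf9 were the transcription factor Runx1 (0.96), Fosb, an AP-1 subunit (0.95), and the stress-inducible Nupr1 (0.95). Those most like Pdcd1lg2 were Agpat5 (0.96), Ube2j2 (0.95) and Rpl27 (0.95), and those most like Cd274 included Gatad2b (0.97) and Traf3, an adaptor of CD40 signaling (0.90). The closest genes to Cd40 were H2-T22 and Hemk1 (both 0.94), to Icosl Ndrg4 and Sept9 (both 0.91), and to Tnfsf4 Rybp (0.92). The closest to Cd86 was Gm6210 (0.88), to Cd83 Npepl1 (0.83) and to Cd70 Gm18859 (0.95).

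The receptors that these ligands engage on T cells, and Cd40lg, which encodes the ligand of CD40, were read in the same libraries. Of these 8 genes, Ctla4, Cd27 and Cd40lg did not pass the filter, with at most 7, 8 and 4 counts in a library. The 5 that passed included Tnfrsf9, which encodes 4-1BB and averaged 1363 CPM in suspension and 1253 CPM in collagen. Pdcd1, which encodes PD-1, was the receptor lower in collagen, from 6.07 ± 5.52 CPM (SD, n = 6) to 2.85 ± 2.15 CPM (n = 12), at a log2 difference of -1.0 ± 0.39 (adjusted p = 0.0983). Icos was higher with the block alone (36.1 and 49.7 CPM, adjusted p = 0.738 without and 0.0365 with the block).

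Of 14 other genes of the B7, butyrophilin and related families, 11 were tested, of which 1 was higher and 1 lower in collagen (3 and 2 with the block). The counts of this and the other lists stand beside 7.78% of all genes higher and 12.4% lower (15.6% and 19.3% with the block), and are given as a description of their genes only. Cd200, whose product restrains myeloid cells, rose from 138 ± 34.2 to 219.8 ± 66.8 CPM (log2 0.67 ± 0.23, adjusted p = 0.0604). Tnfrsf14, the partner of BTLA, fell from 6.55 ± 4.31 to 3.39 ± 1.58 CPM (log2 -0.98 ± 0.37, adjusted p = 0.0944). Of 14 further TNF family ligands, 10 were tested and 1 was higher (2 with the block), Tnfsf15, the ligand of DR3 (log2 1.04 ± 0.33, adjusted p = 0.0468).

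All 16 genes of CD40 and NF-kB signaling were tested, and 1 was higher in collagen (2 higher and 2 lower with the block). This was Traf6, an adaptor of CD40 and Toll-like receptors (log2 0.49 ± 0.17, adjusted p = 0.0665). Of 15 genes of interferon signaling and PD-L1 stability, 3 were lower and 0 higher (4 and 2 with the block). Tyk2, a kinase of interferon receptors, fell from 394 ± 117 to 196 ± 35.1 CPM (log2 -1.01 ± 0.19, adjusted p = 0.003). Irf1, an interferon-induced activator of Cd274, had a log2 difference of -0.61 ± 0.16 (adjusted p = 0.0189), and Ifngr1, a chain of the interferon-γ receptor, one of -0.69 ± 0.23 (adjusted p = 0.0564).

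Of 11 names for genes of the expression and turnover of CD86 and MHC class II, 9 were in the table and tested, and 2 were lower, Ciita, the activator of MHC class II genes (log2 -1.03 ± 0.21, adjusted p = 0.00492), and March8, a ubiquitin ligase of membrane proteins (-0.59 ± 0.15, adjusted p = 0.0184). Of 16 genes of the mature DC program, 15 were tested and 2 were higher (3 higher and 1 lower with the block), Cd200 and Samsn1 (log2 0.87 ± 0.29, adjusted p = 0.0566). None of these 7 lists held a gene with a density trend, except that Tnf and Ciita passed with the block (adjusted p = 0.0611 and 0.0658).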

How the data were processed

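RNA from 18 migration-chamber samples was sequenced as poly(A)-selected, strand-marking libraries. The authors deposited raw read counts per gene for GRCm38, with STAR 2.7.0f named in the submitters' processing notes, and the counting tool is not given in the sources used here. The table names genes by Ensembl identifier, and GENCODE release 21 of the same build gave symbols for 29866 of 29875 genes. Counts were filtered with filterByExpr, scaled by TMM and tested with edgeR 4.0.16 (R 4.3.3) in quasi-likelihood F-tests on 6 group means without a covariate. P-values were adjusted by Benjamini-Hochberg over all 13844 genes tested, at an FDR of 0.1. CPM use TMM-scaled library sizes, and log2 CPM a prior count of 2. Total counts were 13062944 to 28059839 (median 17344953.5), which limits counting error only. No 2 libraries held identical counts.

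Replicate numbers mark a shared date and lane in the library names and were taken as a block in a second fit. Libraries of the same number correlated in their deviations from the group means (mean r = 0.434 over 45 pairs, lowest -0.149). The mean r of -0.259 over 108 pairs of different numbers follows largely from subtracting means of 3 libraries. It is therefore no separate contrast. The biological coefficient of variation was 49.0% without and 33.1% with the block. The titles and the paper call the replicates biological. Only replicate 3 held Y-linked genes and lacked Xist, so its cells came from other animals than those of replicates 1 and 2. The sources do not say whether replicates 1 and 2 are separate animals or cultures, so p-values measure the spread between these samples.

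The members and gene lists were chosen with earlier results of these data known. Besides the 10 members, the text names up to 4 genes of each list that passed the threshold in collagen against suspension, and genes among the 3 most correlated with each member, some of which are not reported here. Icos, Tnfrsf9 and the genes of their list below the filter, and the list genes with a trend under the block, were named after their values were seen. Pairs of members on the same chromosome were compared with two-sided exact permutation tests. The alternatives were DESeq2 1.42.0, another scaling, no filter, GC and length offsets, an FDR of 0.05, and fits without single libraries or replicates. Fits that left out a replicate number used no block. The edgeR scripts were tested on simulated data.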

Additional observations from a re-analysis of the deposited data

Results flagged for a closer look

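Cd70 stood out in 1 of the 6 suspension libraries. In replicate 1 of suspension titled plus CCL19 it measured 12.0 CPM, against 4.19 to 6.68 CPM in the other 5 libraries, and the gap to the nearest of them took 0.679 of the whole range, past the critical value of Dixon's test for 6 libraries. This was 1 of 11 quantities examined, of which chance alone flags about 1 in 20.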

How the results depend on the processing

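Of 580 recomputed values for single members, 545 kept their direction and their side of the threshold, 10 lost the threshold, 8 gained it and 17 changed sign. Only Cd80, Pdcd1lg2 and Tnfsf9 in collagen could lose it, since no other of these values passed in the main fit. Of 29 recomputed values each, Cd80 lost it in 3, Pdcd1lg2 in 1 and Tnfsf9 in 6. Member counts below follow the order any difference, collagen, trend, 4.4 against 1.7 mg/ml, then each density against suspension from loosest to densest, with main values of 0, 3, 0, 0, 0, 1, 0 and 4, and only counts that moved by more than 1.5 times are given. The replicate block gave 4 for any difference, 5 for collagen, and 1, 3, 3 and 7 for the densities. The block with GC and length offsets gave 4 for any difference, 1 for 4.4 against 1.7 mg/ml (Tnfsf9), and 1, 3 and 3 for 1.7, 2.6 and 3.5 mg/ml, and Cd70 in collagen turned to -0.021. DESeq2 gave 2 for any difference and 1 at 3.5 mg/ml. DESeq2 with the block gave 5 for any difference, 6 for collagen, 1 each for the trend and for 4.4 against 1.7 mg/ml (Tnfsf9), and 1, 3, 4 and 8 for the densities. Without a filter the counts were 1 for any difference, and 2, 1 and 2 for the 3 denser gels in rising order. An FDR of 0.05, and a fit of only the groups compared, each gave 0 at 2.6 and 2 at 4.4 mg/ml. With suspension taken as 0 mg/ml, 6 members had a trend. The next settings were chosen after seeing the data. Without the 2 collagen libraries that stand apart, the count at 2.6 mg/ml was 0, Cd274 in collagen was -0.00020 and the slope of Cd70 was -0.13. Without the 3 suspension libraries with the most eosinophil RNA, the counts were 1 for collagen, 0 at 2.6 and 2 at 4.4 mg/ml, Cd83 turned to 0.070 and Cd274 to -0.54. This setting had no block and left replicate 3 with no suspension library. Leaving out 1 replicate number or 1 library gave 0 to 1 members for any difference, 0 to 3 for collagen, 0 to 1 at 2.6 as at 3.5 mg/ml and 0 to 5 in the densest gel. All 0 counts for collagen and 4.4 mg/ml came without replicate 2. Under these omissions Cd274 in collagen ran from -0.17 to 0.43, and the slopes from -0.040 to 0.25 for Cd86, -0.045 to 0.10 for Cd83, -0.054 to 0.16 for Pdcd1lg2 and -0.21 to 0.60 for Cd70. None of these 5 values passed the threshold in the main fit, and the cause of the shifts was not tested. With 3 libraries a group, the printed intervals of members that were not called show how large a difference these data allow.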
